A study of Homo sapiens with 4 samples.

Results

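The 9 genes described here were SOX1, SOX2, SOX4, SOX5, SOX6, SOX8, SOX9, SOX10 and SOX11, chosen by symbol from the 36601 genes of the count tables. They encode SOX transcription factors, which bind DNA through a high-mobility-group domain and fall into subgroups with related sequences. SOX1 and SOX2 belong to the SOXB1 subgroup and are known for keeping neural progenitors undifferentiated. SOX4 and SOX11 belong to the SOXC subgroup, which acts in newly formed neurons. SOX5 and SOX6 belong to the SOXD subgroup, which lacks a transactivation domain and is known for modulating other SOX factors, among them those of the SOXE subgroup. SOX8, SOX9 and SOX10 make up SOXE, and SOX10 is required in neural crest for the progenitors and glia of the enteric nervous system.

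The genes were measured by single-nucleus RNA sequencing of enteric ganglioids, free-floating 3D cultures in which human pluripotent stem cells of the established line H9 are carried through enteric neural crest and crestospheres to neurons. The 4 samples were 2 untreated controls and 2 cultures given 2 μM PP121, a multi-targeted receptor tyrosine kinase inhibitor, from day 15 to day 20. Both groups shared the cell line, the media and the suspension culture, and each library came from a pool of ganglioids. Replicate numbers name the differentiation: replicate 1 of either group carries a collection day of 42 in the deposited annotation and replicate 2 a day of 38, so day and differentiation cannot be told apart. All samples come from 1 cell line. In fits of PP121 without a block, p-values measure the spread between differentiations of that line. Where replicate, day or sample is a term, they measure only the spread of differences that remains after it.

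Of 25306 deposited nuclei, 14812 carried a class, between 2912 and 4587 per sample, with a median of 6289 to 7071 unique molecular identifiers (UMIs) per nucleus. Together they held 164541 UMIs of the 9 genes. The classes, taken as deposited, were enteric neurons, progenitor 1, progenitor 2, mesenchymal, epithelial and unknown. Pairs of libraries shared between 0 and 8 barcodes. The annotation's sample column disagreed with the labels for both control libraries, giving control replicate 1 as control replicate 2 of stage 1 and control replicate 2 as control replicate 1 of stage 2. The labels were followed. The pairing of controls with PP121 samples rests on the labels' numbers and on the collection days of the same annotation, whereas its sample column would give other numbers to both controls. The study's markers went with the class names: 11 neuronal markers summed to 7822 to 10785 CPM (the UMIs of a gene scaled to the total UMIs of that class in that sample) in enteric neurons and 974 to 2101 CPM in the progenitors, and 6 progenitor markers to 1852 to 2378 CPM in progenitor 2. In progenitor 1 these progenitor markers summed to only 604 to 886 CPM, against 406 to 450 CPM in enteric neurons. Mesenchymal nuclei numbered 408 and 422 on day 38 and 40 and 33 on day 42.

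SOX5 and SOX2 are shown with sequence upstream of their starts. They were chosen because the 250 bases before their starts included bases outside every annotated exon and a motif described below. RefSeq's promoter table (GRCh38.p14) listed 5 of the 9 genes, SOX1, SOX2, SOX4, SOX5 and SOX6. The bases printed lie before the outermost annotated start and outside every annotated exon, so 249 bases are given for SOX2 (chr3:181711675-181711923, plus strand) and 91 for SOX5 (chr12:24562651-24562741, minus strand), each 5′ to 3′ on the gene's strand. Capitals mark the core letters CCAAT in SOX2 and ACAAT, which SOX proteins can bind, in SOX5, either as such or as their reverse complements ATTGG and ATTGT. In the 250-base windows, CCAAT occurred in 32% of 35116 promoters and ACAAT in 24.6%, so neither is unusual. The window of SOX4 held 4 CCAAT matches and that of SOX2 held 1, whereas SOX5 and SOX6 held 2 ACAAT matches each. The SOX1 window held neither. Both strands were searched, the motifs share the letters CAAT but no single match can be of both, and a match is a description, not a binding site.
SOX2: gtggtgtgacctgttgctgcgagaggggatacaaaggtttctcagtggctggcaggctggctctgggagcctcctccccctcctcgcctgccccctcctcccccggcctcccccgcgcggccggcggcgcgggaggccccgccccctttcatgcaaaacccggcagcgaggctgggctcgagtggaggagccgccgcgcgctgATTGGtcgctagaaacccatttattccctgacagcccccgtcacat
SOX5: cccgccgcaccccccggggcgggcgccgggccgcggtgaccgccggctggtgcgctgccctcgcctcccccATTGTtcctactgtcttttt

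The SOXB1 genes were higher in the progenitor classes than in neurons. SOX2 (chr3:181711925-181714436, lying inside the long noncoding gene SOX2-OT without exon overlap) measured 61.1 and 55.9 CPM in progenitor 2 of control replicates 1 and 2 and 56.4 and 62.2 CPM in PP121 replicates 1 and 2. In progenitor 1 the 4 values were 40.9, 47.4, 45.6 and 57.1 CPM, and in enteric neurons 13.8, 14.2, 12.3 and 17.8 CPM. The samples of enteric neurons therefore lay below every progenitor sample, whereas the ranges of the 2 progenitor classes overlapped. Because the study used SOX2 to name progenitors and the classes were made from all genes, these class differences are a description with no test. The unknown class held 47.1 to 51.5 CPM, close to progenitor 1. Mesenchymal nuclei ranged from 0 to 12.1 CPM. The epithelial class, with only 9 to 37 nuclei per sample, ranged from 30.9 to 66 CPM on 34 SOX2 UMIs.

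After each nucleus was thinned to 2000 UMIs, 10.1% to 11.1% of progenitor 2 nuclei, 6.87% to 10.6% of progenitor 1 nuclei and 2.27% to 3.59% of enteric neurons held a SOX2 UMI. The 408 and 422 mesenchymal nuclei of day 38, a class not known for SOX2, gave 1.48% and 1.9%, at median depths of 8035.5 and 7227 UMIs before thinning against 7210 to 8102 in enteric neurons. Shares of nuclei cover counting error only. SOX1 (chr13:112067149-112071706), a second SOXB1 factor, was sparse, with 625 UMIs in all. It measured 13.1, 12.3, 13.4 and 10.2 CPM in progenitor 1 and 8.95, 7.59, 10.1 and 7.72 CPM in progenitor 2. In enteric neurons it measured 1.69 to 2.55 CPM. Its thinned share there (0.218% to 0.513% of nuclei) was close to that in mesenchymal nuclei of day 38 (0.494% in control and 0.238% in PP121). Those mesenchymal nuclei held only 7 and 3 SOX1 UMIs before thinning, so background and low expression cannot be told apart.

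**Figure D1:**
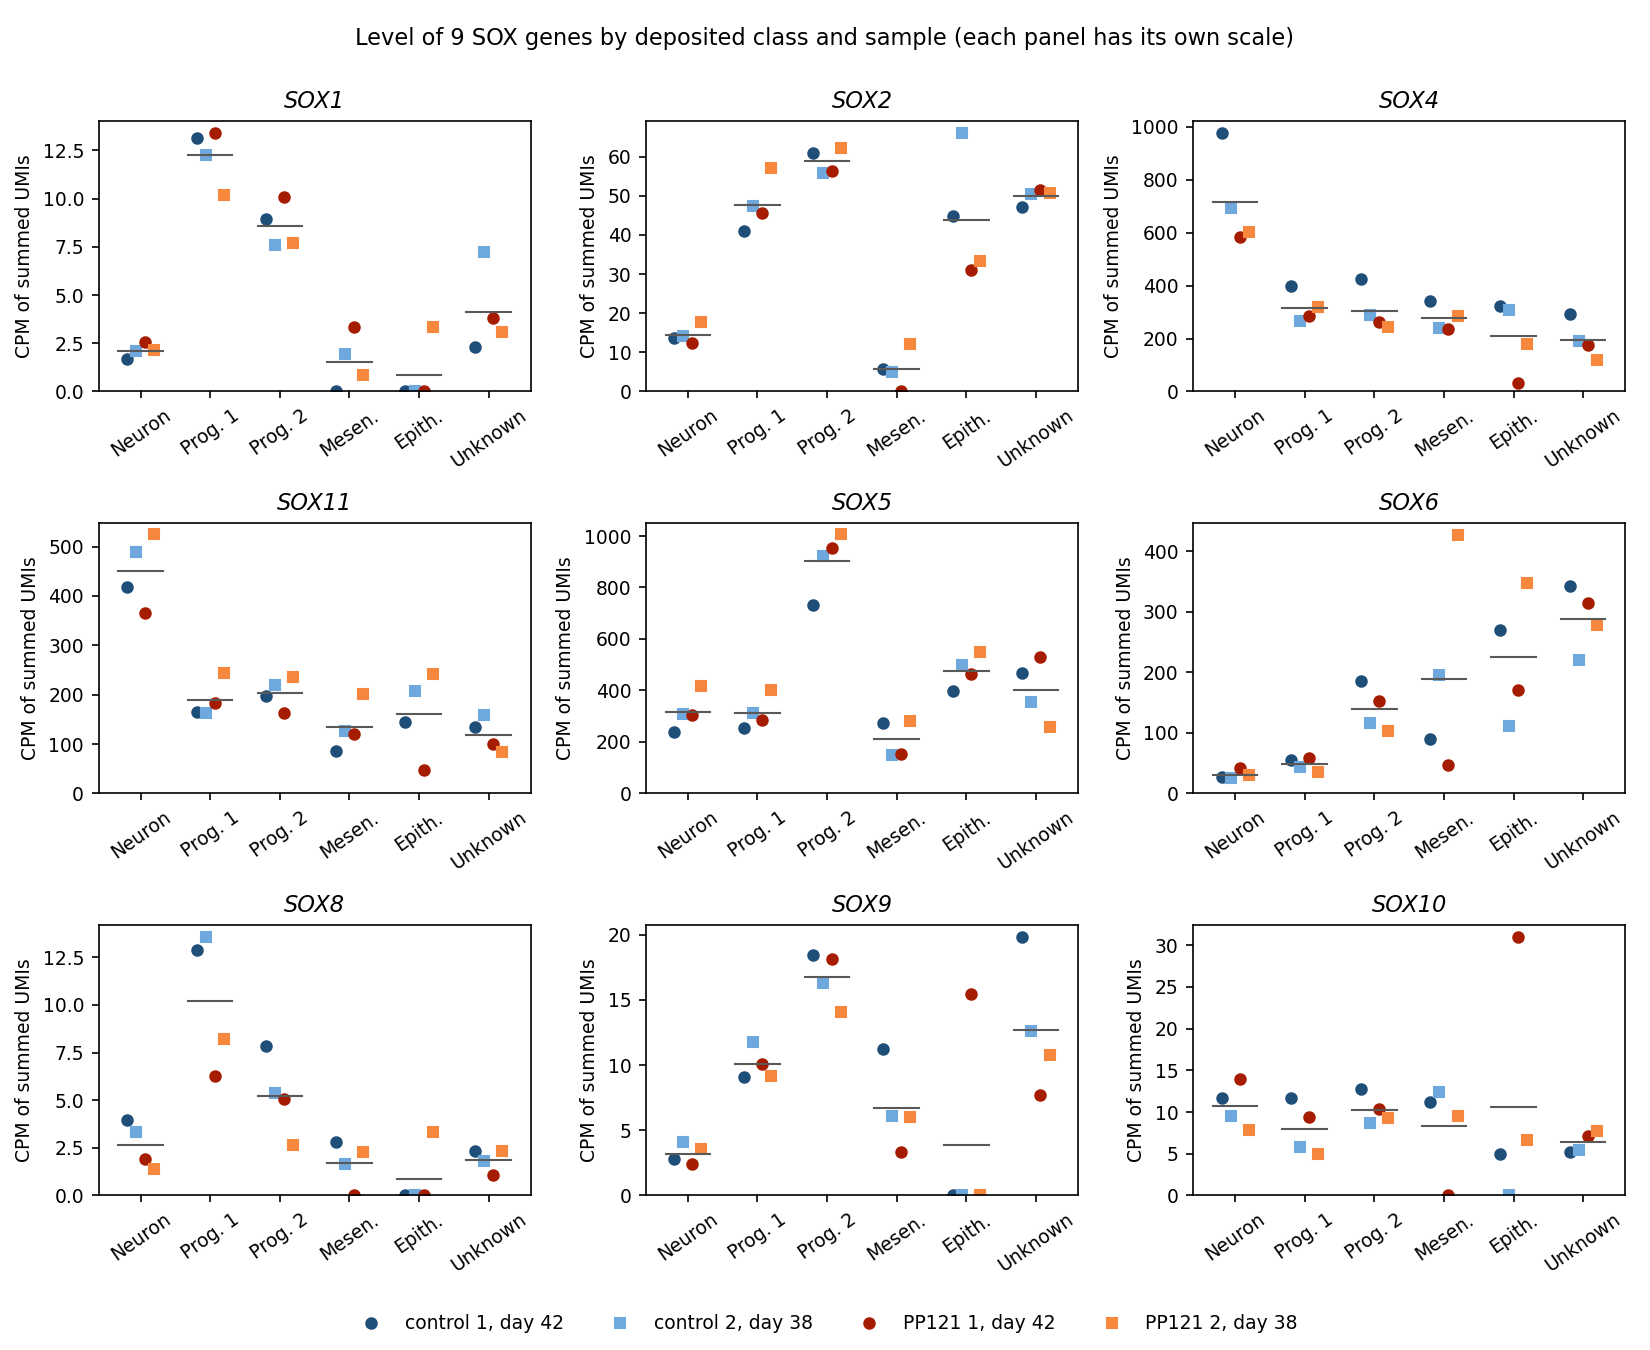
Level of each of the 9 SOX genes as CPM of summed UMIs (y axis, own scale per panel) in the 6 deposited classes (x axis). Points are the 4 samples and grey bars their mean. SOX4 and SOX11 were highest in enteric neurons, SOX5 in progenitor 2, SOX1 and SOX2 in the progenitors, and SOX10 stayed within 4.93 to 14 CPM in the 3 largest classes.

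The SOXC genes showed the opposite order. SOX4 (chr6:21593751-21598619) measured 977 and 695 CPM in enteric neurons of control replicates 1 and 2 and 585 and 601 CPM in those of PP121 replicates 1 and 2. In progenitor 1 it measured 397, 267, 283 and 321 CPM, and in progenitor 2 it measured 427, 288, 264 and 244 CPM. Every neuron sample lay above every progenitor sample, and control replicate 1 stood highest in all 3 classes. Enteric neurons held 69.7% of the annotated SOX4 UMIs. SOX11 (chr2:5692384-5701385) followed the same order, with 419, 489.8, 365 and 525 CPM in enteric neurons, 165, 164, 184 and 245 CPM in progenitor 1 and 196, 219, 163 and 235 CPM in progenitor 2. After thinning, 52.9% to 68.4% of enteric neurons held a SOX4 UMI and 43.7% to 52.7% a SOX11 UMI. Mesenchymal nuclei of day 38 also held SOX4 (36.3% and 41.2%) and SOX11 (23.5% and 31.7%), near the progenitor shares of 31.7% to 46.9% and 25.2% to 32.9%. SOX4 has an antisense transcript, AL512380.2, that overlaps its exon, and since the counting is not stated to use strand the reads of the pair cannot be told apart. SOX11 overlaps exons of AC108025.2, a noncoding gene on the same strand, so strand could not separate the reads of that pair.

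Both SOXD genes were higher in progenitor 2 than in neurons or progenitor 1. SOX5 (chr12:23529504-24562650, minus strand) measured 731, 923, 955 and 1009 CPM in progenitor 2, against 239, 310.1, 304 and 417 CPM in enteric neurons and 253, 313, 285 and 402 CPM in progenitor 1. Its progenitor 2 values lay above those of every other class, and after thinning 65.9% to 72.1% of progenitor 2 nuclei held a SOX5 UMI against 28.2% to 39.7% of enteric neurons. SOX6 (chr11:15966449-16738477, minus strand) measured 185, 116, 153 and 102 CPM in progenitor 2, 35.5 to 58.7 CPM in progenitor 1 and 24.6 to 41.8 CPM in enteric neurons. The unknown class held 342, 219.8, 314 and 278 CPM, and the mesenchymal nuclei of day 38 held 195 CPM in control replicate 2 and 427 CPM in PP121 replicate 2. The few epithelial nuclei held 112 to 348 CPM on 191 SOX6 UMIs. On day 42 mesenchymal SOX6 rested on 32 and 14 UMIs, at 89.7 and 47.1 CPM, below progenitor 2 of the same libraries. In the mesenchymal nuclei of day 38 the 10 nuclei with most SOX6 UMIs carried 36.9% and 33.2% of them, with up to 124 UMIs in 1 nucleus. SOX6 shares exon positions with the antisense gene C11orf58 at its 5′ end and with the microRNA gene MIR6073. SOX5 overlaps SOX5-AS1 on the opposite strand without exon overlap. Strand and intron settings of the counting are not given, so whether that pair shared reads is not known.

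The SOXE genes were low throughout, and SOX10, the defining factor of enteric neural crest and glia, did not mark any class. It measured 11.7, 9.47, 14 and 7.88 CPM in enteric neurons, 11.6, 5.77, 9.4 and 4.93 CPM in progenitor 1 and 12.8, 8.7, 10.3 and 9.27 CPM in progenitor 2. Mesenchymal nuclei of day 38 gave 12.4 and 9.51 CPM, within the range of the neural classes. The share of nuclei with a SOX10 UMI after thinning was 1.85% to 3.01% in enteric neurons, 1.16% to 2.23% in progenitor 1, 1.64% to 2.26% in progenitor 2 and 2.96% and 1.9% in mesenchymal nuclei of day 38. None of these classes is known to lack SOX10, since mesenchyme can also derive from neural crest, so background and low expression cannot be told apart. No nucleus of the 3 largest classes held more than 4 SOX10 UMIs. The gene (chr22:37972312-37984555, minus strand) overlaps exons of POLR2F, a subunit of RNA polymerases on the opposite strand, so part of these counts could not be assigned to a strand.

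SOX9 (chr17:72121020-72126416), which directs cartilage and glial fates, measured 18.5, 16.3, 18.2 and 14.1 CPM in progenitor 2, 9.1, 11.8, 10.1 and 9.2 CPM in progenitor 1 and 2.8, 4.06, 2.38 and 3.54 CPM in enteric neurons. The 3 classes did not overlap. The thinned share was 0.48% to 1.13% in enteric neurons and 2.12% to 3.57% in progenitor 2. In mesenchymal nuclei of day 38 it was 0.988% in control replicate 2 and 0.476% in PP121 replicate 2. Those mesenchymal shares rested on 4 and 2 nuclei, and mesenchymal SOX9 ranged from 3.36 to 11.2 CPM over the 4 samples. In enteric neurons, background and low expression of SOX9 therefore cannot be told apart. SOX8 (chr16:981770-986979), a SOXE factor that overlaps SOX10 in function, was the sparsest gene with 512 UMIs. It measured 12.9 and 13.5 CPM in progenitor 1 of the controls and 6.27 and 8.21 CPM in that of the PP121 samples, with thinned shares of 1.19% to 2.49% against 0.247% and 0.714% in mesenchymal nuclei. In enteric neurons the share was 0.148% to 0.742%.

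PP121 was compared with control within each class on UMIs summed per sample, with edgeR's quasi-likelihood test. Without regard to the pairing of differentiations, 0 of the 9 genes passed an adjusted p of 0.05 in enteric neurons, progenitor 1 or progenitor 2, and 0% of all genes tested did so in each class (0 of 21243, 16083 and 18885). At an unadjusted p under 0.05, SOX4, SOX6 and SOX8 stood out in enteric neurons, SOX8 in progenitor 1 and SOX4 in progenitor 2, beside 2549, 621 and 1774 genes in all. DESeq2 passed none of the 9 either. The labels give each sample a differentiation replicate number, and with it as a block SOX4, SOX5, SOX6 and SOX8 passed in enteric neurons, beside 14.8% of all genes.

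With that block, SOX4 fell in PP121 enteric neurons by 0.44 on the log2 scale (SE 0.10, adjusted p = 0.00295 in edgeR). The PP121 sample was 0.599 times the control on day 42 and 0.865 times on day 38, and control replicate 1 was the highest sample. Without that library the unblocked log2 fold change went from -0.45 to -0.22. SOX8 fell by 1.10 (SE 0.33, adjusted p = 0.0218 in edgeR), from 3.96 and 3.34 CPM in controls to 1.9 and 1.37 CPM, on 75, 37, 32 and 12 UMIs. SOX5 rose by 0.42 (SE 0.09, adjusted p = 0.0012 in edgeR), with ratios of 1.27 on day 42 and 1.34 on day 38. SOX6 rose by 0.52 (SE 0.13, adjusted p = 0.0061 in edgeR), from 27.2 and 24.6 CPM to 41.8 and 30.5 CPM. The block leaves 1 residual degree of freedom, so these calls lean on the spread pooled over genes.

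The boundary between neurons and progenitor 1 lay differently in the treatments. When all annotated nuclei were clustered together without the 9 genes, 6.69% and 7.92% of control neurons but 1.77% and 1.13% of PP121 neurons fell into the joint progenitor 1 class. Conversely, 6.83% and 4.28% of control and 15% and 12.8% of PP121 progenitor 1 nuclei fell among joint neurons. The joint progenitor 2 class took 3.75% and 3.62% of control but 7.6% and 17.6% of PP121 progenitor 1 nuclei. It held 76% and 78.5% of control but 87.1% and 91.3% of PP121 progenitor 2 nuclei. With these joint classes and the block, 2 of the 9 genes passed in enteric neurons, beside 5.09% of all genes: SOX4 (log2 fold change -0.48, SE 0.12, adjusted p = 0.0377 in edgeR) and SOX8 (-1.15, SE 0.30, adjusted p = 0.0495 in edgeR). SOX5 measured 0.26 (adjusted p = 0.0741) and SOX6 0.32 (adjusted p = 0.162) there.

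In the progenitor classes the block brought 1 call. SOX4 fell in progenitor 2 by 0.44 (SE 0.12, adjusted p = 0.00825 in edgeR, beside 6.71% of all genes), with ratios of 0.618 on day 42 and 0.848 on day 38. With joint classes its log2 fold change there was -0.17 (adjusted p = 0.495), and without control replicate 1 the unblocked value was -0.19. In progenitor 1, 0 of the 9 genes passed with the block, beside 3.69% of all genes. SOX8 had a log2 fold change of -0.91 (SE 0.33, adjusted p = 0.113) in progenitor 1 and -0.75 (SE 0.33, adjusted p = 0.189) in progenitor 2. SOX11 in progenitor 1 measured 0.34 (SE 0.16, adjusted p = 0.32) and SOX5 in progenitor 2 measured 0.29 (adjusted p = 0.0967). Without the block, the members not named here lay between -0.19 and 0.39 on the log2 scale in enteric neurons, -0.26 and 0.26 in progenitor 1 and -0.21 and 0.13 in progenitor 2. An exact permutation test of 2 samples against 2 cannot go below p = 0.333.

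**Figure D2:**
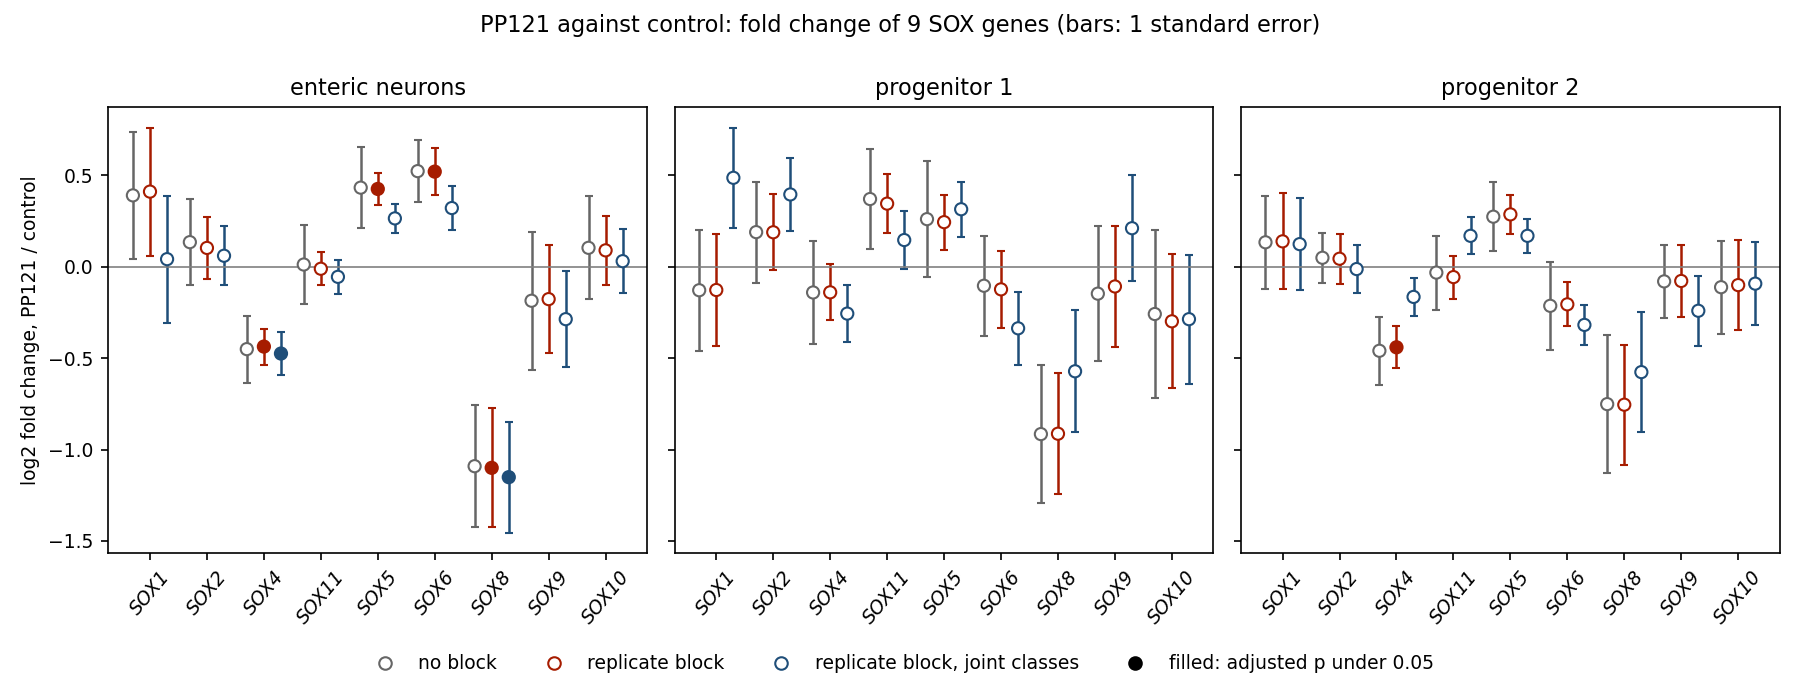
Log2 fold change of PP121 over control (y axis) for the 9 SOX genes (x axis) in 3 classes, with 1 standard error. Grey points are fits without the replicate block, red with it and blue with it on jointly clustered classes, and filled points passed an adjusted p of 0.05. In enteric neurons SOX4 and SOX8 were filled in both blocked fits, SOX5 and SOX6 in 1 of them.

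Whether the PP121 effect differed between classes was tested with an interaction term. None of the 9 genes passed for neurons against progenitor 1 or against progenitor 2 (0% of 20664 genes in both, with 1823 and 1237 at an unadjusted p under 0.05). The other 8 genes differed by -0.29 to 0.58 and by -0.30 to 0.30 on the log2 scale. SOX6 came nearest. Its log2 fold change was higher in neurons by 0.70 (SE 0.22, adjusted p = 0.388) than in progenitor 1 and by 0.76 (SE 0.20, adjusted p = 0.469) than in progenitor 2.

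Other genes tied to SOX function moved in enteric neurons under the blocked fit. Of the genes listed as downstream of or beside SOX4 and SOX11, called SOXC-linked here (TUBB3, DCX, STMN2, ELAVL3, ELAVL4, NEUROD1, TEAD2), 3 of 7 rose and none fell. Their median log2 fold change was 0.37, against -0.01 over all genes, of which 7.97% rose and 6.86% fell. STMN2, a microtubule regulator of growing axons, rose by 0.40, ELAVL3, a neuronal RNA-binding protein, by 0.37, and TEAD2 by 1.36. In the neural crest list PAX3 rose by 0.52. Among other SOX genes 1 of 5 tested rose, the SOXD gene SOX13 (0.53), and among noncoding transcripts of SOX loci 1 of 5, SOX2-OT (0.30). None of the 8 progenitor genes passed. In the cartilage list MATN1 fell by 0.85 in enteric neurons and by 1.46 in progenitor 2, where COL2A1, a cartilage collagen and target of SOX9, rose by 2.66. These folds rest on low levels. COL2A1, ACAN and MATN1 together summed to 13.9 and 22.8 CPM in control and 11.5 and 20.2 CPM in PP121 progenitor 2. SOX9 itself measured 18.5 and 16.3 CPM in control and 18.2 and 14.1 CPM in PP121 progenitor 2. Also in progenitor 2, SOX5-AS1 rose by 0.54, HES1 by 0.65 and TEAD2 by 0.71, and in progenitor 1 DCX rose by 0.73. With joint classes SOX13, SOX2-OT and PAX3 no longer passed in enteric neurons, nor did SOX5-AS1 and HES1 in progenitor 2 or DCX in progenitor 1. ELAVL4 (1.72) and SOX9-AS1 (-0.64) passed in progenitor 2 with joint classes but not with the deposited ones. These list calls rest on the same 1 residual degree of freedom as those of the members.

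The 2 collection days were compared with treatment as a term. Each day held 1 differentiation, with 1 control and 1 PP121 sample, and the fit left 1 residual degree of freedom. Its p-values therefore cover how far the day difference varied between the treatments, not between differentiations of the same day. In enteric neurons SOX11 was lower on day 42 by 0.43 (SE 0.09, adjusted p = 0.00161 in edgeR) and SOX5 by 0.47 (SE 0.09, adjusted p = 4.4e-04 in edgeR). These 2 of the 9 genes passed beside 9.49% of all genes. SOX5 was at 239 and 304 CPM on day 42 and 310.1 and 417 CPM on day 38, and the days did not overlap. In progenitor 1 only SOX5 passed (1 of 9, beside 14.6% of all genes), lower on day 42 by 0.56 (SE 0.15, adjusted p = 0.00399 in edgeR). In progenitor 2, 2 of 9 passed beside 4.81% of all genes. SOX6 was higher on day 42 (log2 fold change 0.57, SE 0.12, adjusted p = 8.3e-04 in edgeR), at 185 and 153 CPM against 116 and 102 CPM, and SOX11 was lower (-0.40, SE 0.12, adjusted p = 0.0304 in edgeR).

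Several values were short of the threshold on the days. SOX2 was lower on day 42 by 0.35 in enteric neurons (adjusted p = 0.216) and by 0.43 in progenitor 1 (adjusted p = 0.162), and SOX10 measured 0.49 in enteric neurons (adjusted p = 0.105). SOX9 in enteric neurons measured -0.61 (adjusted p = 0.216). In progenitor 1 SOX11 measured -0.36 (adjusted p = 0.116) and SOX10 0.81 (adjusted p = 0.129), and in progenitor 2 SOX4 measured 0.28 (adjusted p = 0.182) and SOX5 -0.26 (adjusted p = 0.177). The remaining members lay between -0.09 and 0.27 in enteric neurons, -0.37 and 0.38 in progenitor 1 and -0.06 and 0.66 in progenitor 2. Without the treatment term 0 of the 9 genes passed in any class. With DESeq2 neither SOX6 nor SOX11 passed in progenitor 2. The summed CPM of 13 mesenchymal markers in enteric neurons was 152 and 164 on day 42 and 200 and 230 on day 38, moving with the day as the mesenchymal nuclei did, and their part in the result was not tested. Of the listed genes in enteric neurons, the neural crest gene TFAP2B (0.35) was higher on day 42 and PAX3 (-0.46) was lower. Also lower there were SOX13 (-0.64), SOX21-AS1 (-1.38), MATN1 (-1.28), the progenitor gene NES (-0.45) and 2 of 7 SOXC-linked genes, TEAD2 (-1.09) and ELAVL4 (-0.82). In progenitor 1, SOX13 (-0.77), SOX2-OT (-0.57) and ZEB2 (-0.78) were lower and STMN2 (0.75) and ERBB3 (2.06), a neuregulin receptor of glial precursors, were higher. ERBB3 was sparse there, as 7 glial and Schwann lineage markers that include it summed to only 4.27 to 13.1 CPM. In progenitor 2, 2 of 5 noncoding transcripts, SOX5-AS1 (-0.49) and SOX21-AS1 (-0.73), were lower, as were MITF (-0.57), COL2A1 (-2.36) and TEAD2 (-0.56), and FABP7 (1.27) was higher. The value of COL2A1 rests on the low levels given above.

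**Figure D3:**
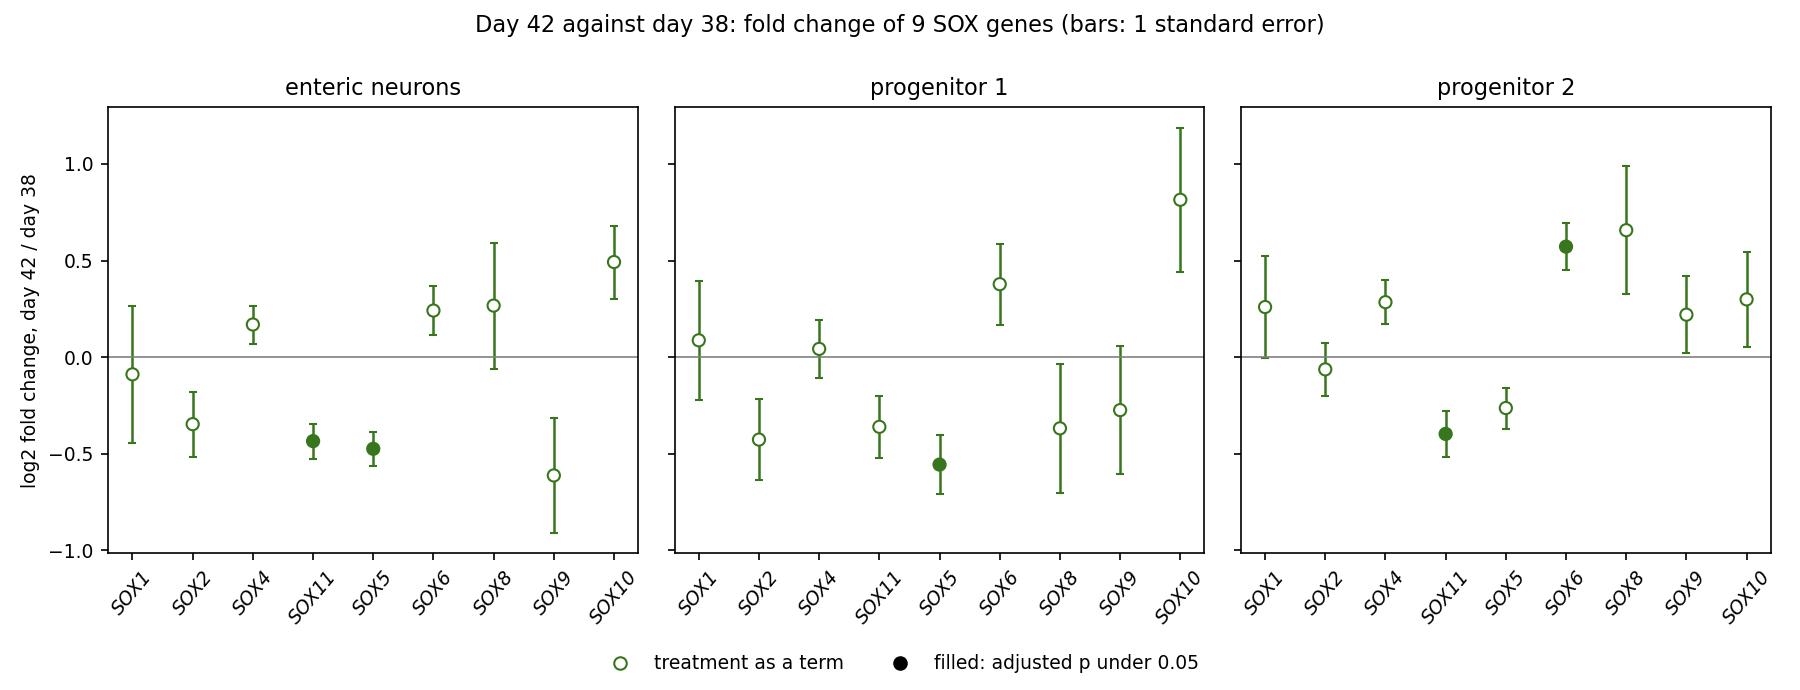
Log2 fold change of day 42 over day 38 (y axis) for the 9 SOX genes (x axis) in 3 classes, with treatment as a term and 1 standard error, filled where the adjusted p was under 0.05. SOX5 lay below 0 in enteric neurons and progenitor 1 and SOX6 above 0 in progenitor 2.

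Phases, as deposited cell-cycle calls, were compared within a sample, with the sample as a block. The calls also put 811, 468, 519 and 223 enteric neurons in S and 265, 142, 197 and 143 in G2M. A call alone therefore does not show that a nucleus was cycling. In progenitor 2, G2M nuclei held less SOX6 and SOX5 than G1 nuclei. SOX6 fell from 198, 124, 184 and 107 CPM in G1 to 152, 102, 113 and 89 CPM in G2M, in every sample (log2 fold change -0.42, SE 0.09, adjusted p = 0.00308 in edgeR). SOX5 fell from 768, 975, 1001 and 1012 CPM to 685, 833, 867 and 888 CPM, a smaller difference (-0.20, SE 0.06, adjusted p = 0.0329 in edgeR). These 2 of 9 genes passed beside 9.54% of all genes. SOX2 went the other way in every sample, from 56.3, 51.2, 52.8 and 61.5 CPM to 77.1, 63.3, 68.1 and 71.3 CPM, and missed the threshold (0.34, SE 0.11, adjusted p = 0.0519 in edgeR). It passed in 3 alternatives, with adjusted p of 0.0341 to 0.0456 in edgeR, and measured 0.12 with joint classes, where SOX11 passed instead. The 6 genes not named here lay between 0.04 and 0.29. The calls for SOX5 and SOX6 did not hold in every alternative: SOX5 missed the threshold whenever any 1 sample was left out (adjusted p of 0.0648 to 0.173), and SOX6 did without PP121 replicate 1 (-0.32, adjusted p = 0.0703) and after thinning (-0.27, adjusted p = 0.373).

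In progenitor 1, SOX5 was lower in G2M by 0.46 (SE 0.11, adjusted p = 0.00624 in edgeR), as the only 1 of 9 genes beside 8.41% of all genes. Its G1 values of 295, 313, 388 and 517 CPM went to 242, 299, 223 and 315 CPM. The log2 fold change was -0.33 (adjusted p = 0.119) without PP121 replicate 1 and -0.37 (adjusted p = 0.0683) without PP121 replicate 2. SOX6 measured -0.54 (SE 0.20, adjusted p = 0.092), and the other 7 genes, SOX2 among them at -0.02, lay between -0.45 and 0.53. With joint classes SOX6 passed (-0.99, adjusted p = 0.00144). S phase against G1 gave no call in either class (0 of 9, beside 0.538% of all genes in progenitor 1 and 4.21% in progenitor 2). In progenitor 1, SOX5 in S phase measured -0.32 (adjusted p = 0.197), SOX2 -0.43 (adjusted p = 0.335) and the rest -0.41 to 0.16. In progenitor 2, SOX6 measured -0.23 (adjusted p = 0.152) and the rest -0.14 to 0.27. Of the 8 progenitor genes, 4 rose in G2M of progenitor 2, where 5.69% of all genes rose, namely the intermediate filament NES (0.34), the Notch targets HES1 (0.49) and HES5 (0.59), and POU3F3 (0.57). The median of that list was 0.36. STMN2 fell there by 0.61 and DCX by 0.43, the 2 of 6 SOXC-linked genes that passed, and 2 of 3 cartilage genes rose, COL9A1 by 2.81 and MATN1 by 1.18. These differences were not particular to G2M. In S phase of progenitor 2, STMN2 was lower than in G1 by 0.65 and DCX by 0.54, where 0.984% of all genes fell. COL9A1 was higher in S phase by 3.01, where 3.23% of all genes rose. The cartilage list of 6 genes summed to only 18.1 to 30.6 CPM in progenitor 2. In progenitor 1, HES5 rose by 0.71 and MATN1 by 1.02 in G2M.

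**Figure D4:**
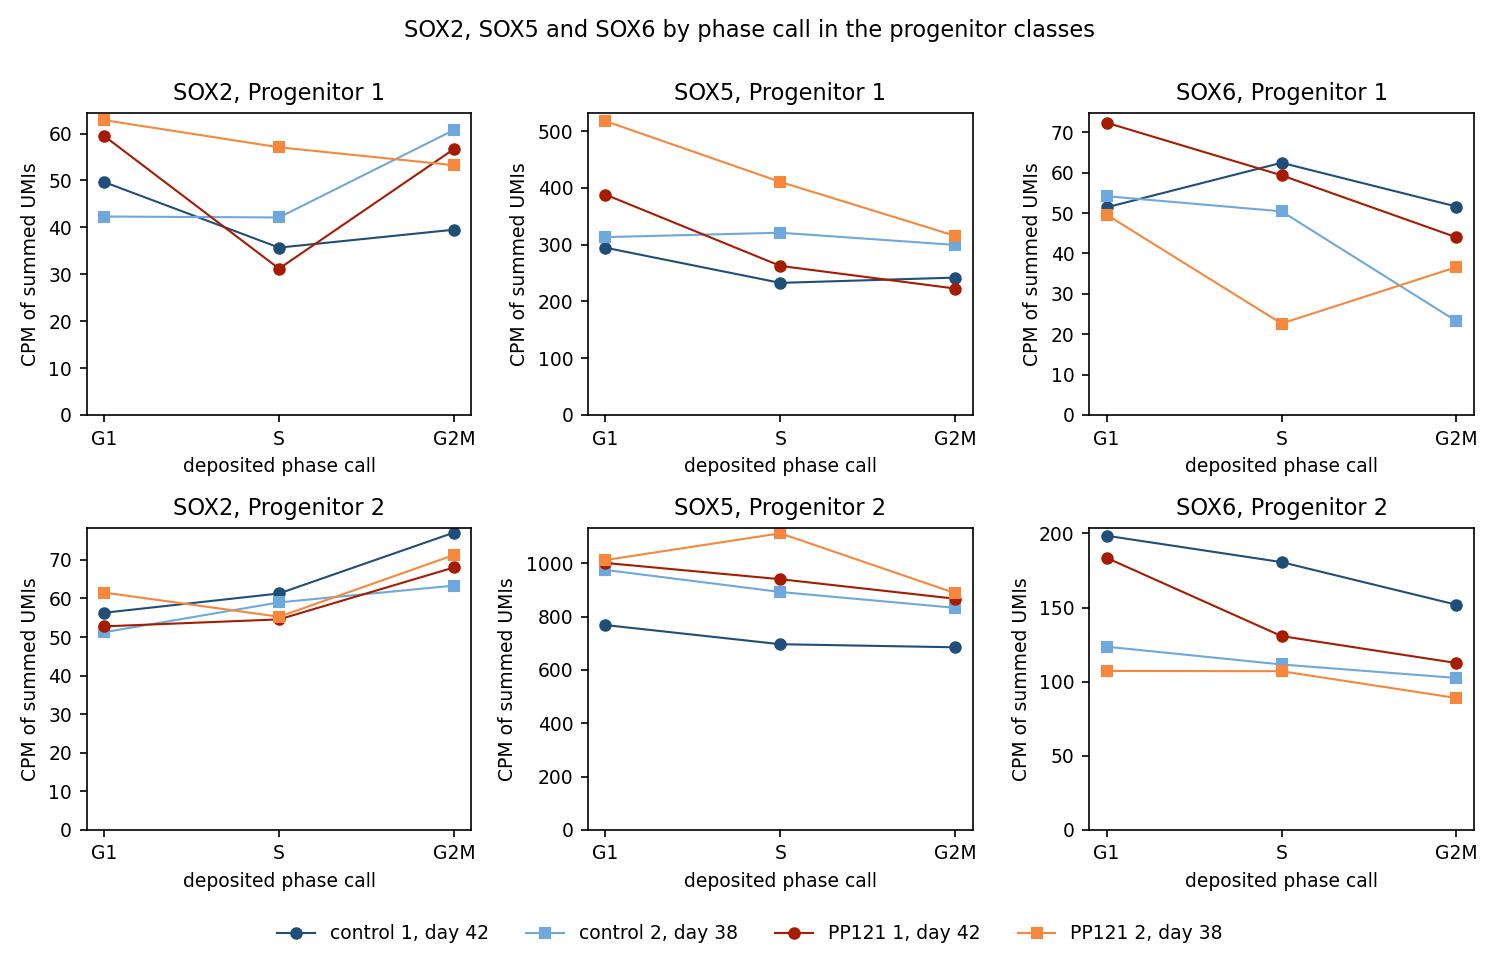
SOX2, SOX5 and SOX6 as CPM of summed UMIs (y axis) by deposited phase call (x axis) in progenitor 1 (top) and progenitor 2 (bottom), with lines joining the phases of a sample. In progenitor 2 SOX6 and SOX5 were lower and SOX2 higher in G2M than in G1 in all 4 samples.

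Within enteric neurons, those carrying the deposited nitrergic identity held less of both SOXC genes. The identity was given by the study to neurons with imputed NOS1, the neuronal nitric oxide synthase, and a positive score of nitric oxide genes, none of them a SOX gene. The other neurons compared numbered 1836, 1004, 1529 and 824. The class held 2301, 1250, 2030 and 976 nuclei, so the 2 groups left out part of it in each sample. SOX4 measured 572, 474, 356 and 269 CPM in the 449, 230, 358 and 91 nitrergic neurons and 1080, 732, 655 and 655 CPM in the others. It was lower in 4 of 4 samples by 0.87 on the log2 scale (SE 0.09, adjusted p = 5.3e-05 in edgeR). SOX11 measured 247, 329.5, 215 and 247 CPM against 462, 523, 416 and 578 CPM, lower in 4 of 4 samples by 0.88 (SE 0.09, adjusted p = 3e-05 in edgeR). These 2 of 9 genes passed beside 11.7% of all genes, and both kept the call when any 1 sample was left out. SOX8 (-1.14, adjusted p = 0.127), SOX2 (-0.54, adjusted p = 0.153) and SOX6 (-0.38, adjusted p = 0.183) did not pass. SOX1, SOX5, SOX9 and SOX10 lay between -0.01 and 0.19, and SOX5 measured 281, 283, 367 and 376 CPM in nitrergic neurons against 228, 316, 263 and 409 CPM.

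The difference depended on how a nitrergic neuron was defined. With at least 1 NOS1 UMI as the definition, 52, 30, 42 and 20 neurons were left, against 449, 230, 358 and 91 by the deposited identity. Most neurons of that identity then counted among the 2249, 1220, 1988 and 956 others, so both groups changed. The others then also took in the nuclei of the class that lay outside both deposited groups. SOX4 measured -0.26 (SE 0.13, adjusted p = 0.657 in edgeR) and SOX11 -0.13 (SE 0.13, adjusted p = 0.946 in edgeR). Calls over all genes ranged from 196 to 3041 across the alternatives of this comparison, against 2223 with the deposited identity. Across the 6 deposited transmitter identities, which can share a neuron, nitrergic neurons had the lowest SOX4 and SOX11 in 4 of 4 samples. Glutamatergic neurons had the highest SOX11, at 552, 642, 486 and 623 CPM.

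Of the 6 tested SOXC-linked genes, 3 fell and 1 rose in neurons of that identity, where 4.26% of all genes fell and 7.43% rose. TUBB3, the neuronal tubulin, fell by 0.62, ELAVL3 by 0.37 and TEAD2 by 1.34, while STMN2 rose by 0.42. Of the 8 progenitor genes, 4 fell: NOTCH1 (by 1.2), POU3F2 (by 0.98), POU3F3 (by 0.88) and NES (by 0.83), and the median of the list was -0.58 against -0.01 for all genes. SOX2-OT fell by 1.02, and in the neural crest list PAX3 fell by 1.05 and ZEB2 by 0.48, while TFAP2B rose by 0.68. The 6 progenitor markers, which include NOTCH1 and PAX3, summed to 283, 282, 192 and 173 CPM in nitrergic and 485, 466, 383 and 444 CPM in other neurons. Their part in the SOX4 and SOX11 difference was not tested.

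**Figure D5:**
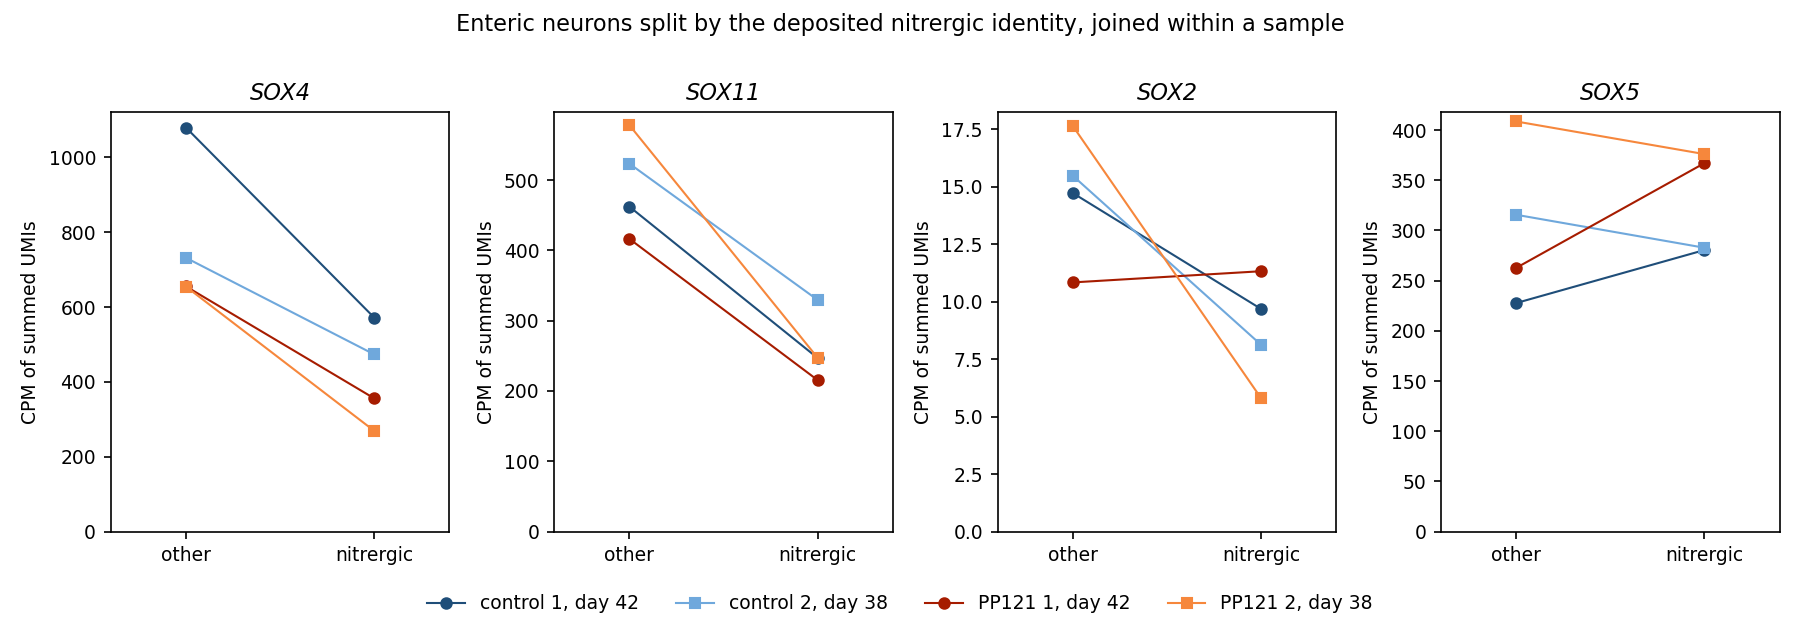
SOX4, SOX11, SOX2 and SOX5 as CPM of summed UMIs (y axis) in enteric neurons without and with the deposited nitrergic identity (x axis), with a line for each of the 4 samples. SOX4 and SOX11 were lower in nitrergic neurons in all 4, with SOX4 at 269 to 572 against 655 to 1080 CPM.

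The genes most like each member were found by Pearson correlation of log2(CPM + 1) over 18 profiles of a class in a sample, among 11571 genes with a mean of at least 10 CPM. The profiles share libraries and classes, so the values are descriptions. MLLT11 was most like SOX4 (r = 0.961), followed by PAX2 and MAB21L1, and KIF21B, a neuronal kinesin, was most like SOX11 (0.968), followed by MYT1 and CRMP1. TTYH1 (0.955), PLEKHA7 and ILDR2 were most like SOX2. SOX5 had its antisense transcript SOX5-AS1 (0.944), with TRDMT1 and ITGB8, as its nearest genes. Whether SOX5 and SOX5-AS1 shared reads is not known, so likeness and counting cannot be told apart for that pair. SOX6 had SFRP4 (0.979), a secreted WNT modulator, with SLC4A4 and LINC01515. CDKAL1 (0.922) was nearest to SOX1, ZC3H3 (0.931) to SOX8 and FUT10 (0.941) to SOX9. SOX10 had the weakest best match, LENG8-AS1 (0.858). Among the members, SOX4 and SOX11 were most alike (0.886), followed by SOX2 and SOX9 (0.789), and SOX6 ran opposite to SOX11 (-0.77) and SOX4 (-0.73).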

How the data were processed

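Single-nucleus RNA-seq was analysed in 2 control and 2 PP121 samples. The deposited tables hold raw UMI counts per gene and nucleus, made by the authors with kallisto and bustools by their methods (the submitters' processing notes name Cell Ranger, Seurat 4.0.4 and GRCh38), and deposited percent columns of mitochondrial and ribosomal counts per nucleus entered no test. Strand and intron settings are not given in the sources used here. Nuclei that failed the authors' filter carry no class and were left out. No doublet caller was run, and an alternative dropped nuclei above the 95th percentile of UMIs.

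UMIs were summed per class and sample and tested with edgeR 4.0.16 (R 4.3.3) by the quasi-likelihood test, after filterByExpr and TMM scaling, with Benjamini-Hochberg adjustment over all genes at 0.05. Day fits carried treatment as a term. The fit of PP121 with the replicate block has the same terms and leaves 1 residual degree of freedom among 4 samples. The labels name the number as the differentiation replicate, and deviations of same-numbered samples correlated at 0.421 in enteric neurons, 0.435 in progenitor 1 and 0.275 in progenitor 2. Alternatives were DESeq2 1.42.0, other filters, nuclei thinned to 2000 UMIs, joint clustering in scanpy 1.11.5 without the 9 genes, and leaving out each sample. Steps were checked on simulated data with 200 changed genes. All 9 genes were tested wherever they could be, with 37 member results at an unadjusted p under 0.05 with or without the block given singly, and 80 as ranges, listed genes were named where they passed (some genes of the neural crest and glial lists, and counts over those lists, are not reported here), and the 3 most correlated genes were taken per member. The members and gene lists were chosen with earlier results of these data known. Intervals and shares of nuclei cover counting error only.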

Additional observations from a re-analysis of the deposited data

Results flagged for a closer look

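SOX9 differed between days in opposite directions in 2 classes. On day 42 minus day 38 its level changed by -1.26 CPM in control and -1.16 CPM in PP121 enteric neurons, and by 2.17 CPM in control and 4.11 CPM in PP121 progenitor 2. SOX8 did so as well, with 0.621 CPM in control and 0.53 CPM in PP121 enteric neurons, -0.659 and -1.94 CPM in progenitor 1, and 2.46 and 2.42 CPM in progenitor 2. Both genes are sparse, and the difference between classes was not tested.

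The 4248, 1816, 2400 and 2030 nuclei without a class (control replicates 1 and 2, then PP121 replicates 1 and 2), at median depths of 666, 807, 822.5 and 708.5 UMIs, lay outside every comparison. They held SOX5 at 325 and 453 CPM in controls and 539 and 567 CPM in PP121 samples, and SOX6 at 70.3 and 54.9 CPM against 75.1 and 88.5 CPM. Other members went the other way, with SOX4 at 1039 and 597 CPM in controls and 558 and 551 CPM in PP121 samples, SOX8 at 11.5 and 8.44 CPM against 3.86 and 5.54 CPM, and SOX1 at 9.67 and 8.66 CPM against 7.72 and 7.39 CPM. None of these differences was tested.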

How the results depend on the processing

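Counts of the 9 genes with an adjusted p under 0.05 depended on the pairing: with the replicate block, PP121 against control gave 4 in enteric neurons and 1 in progenitor 2 (2 in enteric neurons with joint classes), against 0 without it. Without the treatment term the days gave 0 in each class, and with 1 sample also left out 0 to 0 in enteric neurons, 0 to 1 in progenitor 1 and 0 to 0 in progenitor 2, where SOX4 reversed to -0.046 without control replicate 1. For the days in progenitor 2, DESeq2 gave 0, a minimum of 10 counts in every library 1, and leaving out nuclei of high UMIs 1. G2M against G1 in progenitor 1 gave 2 without high-UMI nuclei, 2 with joint classes and 0 to 1 with a sample left out. In progenitor 2 it gave 1 with DESeq2, 1 after thinning, 3 with a minimum of 10 counts, 3 with joint classes and 0 to 2 with a sample left out. S against G1 in progenitor 1 gave 1 with joint classes. The nitrergic comparison gave 4 without a filter, 0 with at least 1 NOS1 UMI and 2 to 3 with a sample left out. The cause of these changes was not tested. For the 37 member results given singly, 196 fold changes under other alternatives kept their direction and side of the threshold, 14 gained a call and 14 lost one, and with a sample left out 118 kept both, 2 gained a call, 26 lost one and 1 reversed. Of the 80 given as ranges, 56 changed direction in at least 1 alternative and 1 gained a call. Counts over all genes ranged, across alternatives, from 0 to 3152, 593 and 1267 for PP121 in enteric neurons, progenitor 1 and progenitor 2 (0 as reported, where unblocked fits without PP121 replicate 1 gave 1402, 349 and 1052, fits without a filter 69, 81 and 768, and DESeq2 102, 1 and 98), from 0 to 2321, 2167 and 970 for the days (2015, 2350 and 908 as reported), from 339 to 1236 and 663 to 2598 for G2M in progenitor 1 and 2 (1110 and 1560), from 26 to 161 and 326 to 943 for S (71 and 689), up to 229 and 138 for the interactions (0 and 0), and from 196 to 3041 for nitrergic neurons (2223). SOX8, SOX1 and SOX10 are limited by few UMIs.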
